A study of Mus musculus with 22 samples.

Results

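The semaphorins of classes 3 to 7, the plexins and the neuropilins were followed as a group of 31 genes, 20 semaphorins, 9 plexins and 2 neuropilins, chosen by gene symbol from the 37786 genes of the count table. All 31 passed the minimum of 10 counts in at least 10 mice. Semaphorins are secreted or membrane-bound ligands that steer growing axons and dendrites, plexins are their transmembrane receptors, whose inner part switches off small GTPases and so loosens the cytoskeleton, and neuropilins are co-receptors that most secreted class 3 semaphorins need. In the adult cortex the same genes are known for tuning dendritic spines and synapses, and several of them for guiding oligodendrocytes, the cells that make myelin.

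The RNA came from undissociated anterior cingulate cortex (ACC) of 22 adult male wildtype C57BL/6J mice. Per the study's methods, mice received a viral vector carrying the light-gated channel ChR2 under the CaMKIIa promoter in the basolateral amygdala (BLA) and a fibre into the ACC, so that the channel sat in excitatory BLA neurons and in their terminals in the ACC. In the 10 stimulated mice light was given in 9 sessions, and in the 12 controls no light was given. Libraries were made from 5 ng of RNA as amplified full-length cDNA and held 23090483 to 43668462 counts, and a member had between 19 counts (Sema3g in control 3) and 9145 counts (Plxna1 in stimulated mouse 5).

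By the library numbers in the labels, controls came first and stimulated mice after them, and this order occurred once in numbers 1 to 11 (6 controls and 4 stimulated mice, here run 1) and again in numbers 12 to 23 (6 and 6, run 2). Number 7 was not analysed here, and the series' design text gives a total of 23 samples beside groups that add to 22. The division into runs was inferred from this order alone, since the labels name no batch, and the run was kept in the main fits as a stand-in for the batch that the study's own model used. The study's methods name batches of animals, listed in a supplementary table that was not used here, and whether they match the runs was not checked. That model also used RNA integrity, which the labels do not give, and no fit here adjusts for it. A fit without it is named where it is used. Controls 9 and 11, both of run 2, stood apart in oligodendrocyte genes: their score, the mean log2 level of 26 oligodendrocyte markers centred within each run, was 1.92 and 1.31, against -0.76 to 0.25 in the other 20 mice. Microglial, astrocytic, endothelial and neuronal markers were all above 0 in every library, as was every oligodendrocyte marker.

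The regions just before the transcription start are shown for the 3 members with an unadjusted p under 0.05 between the groups, as examples of the sequence before their starts. Each is the 250 bases before the start nearest to the annotated 5′ end, from RefSeq on GRCm38.p6 and in the direction of the gene. Capitals mark GGGCGG or CCGCCC (the GC box bound by Sp factors) and ACAAAG or CTTTGT (the core of the motif bound by Sox factors such as Sox10), on either strand. The lines give Sema4a at chr3:88461183-88461432 (minus strand), Sema6d at chr2:124089719-124089968 (plus strand) and Plxnb3 at chrX:73756853-73757102 (plus strand).
Sema4a: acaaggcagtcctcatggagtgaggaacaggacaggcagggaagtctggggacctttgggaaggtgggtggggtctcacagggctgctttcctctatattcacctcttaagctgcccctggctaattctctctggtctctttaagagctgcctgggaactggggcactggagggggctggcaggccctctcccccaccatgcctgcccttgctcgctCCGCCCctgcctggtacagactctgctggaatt
Sema6d: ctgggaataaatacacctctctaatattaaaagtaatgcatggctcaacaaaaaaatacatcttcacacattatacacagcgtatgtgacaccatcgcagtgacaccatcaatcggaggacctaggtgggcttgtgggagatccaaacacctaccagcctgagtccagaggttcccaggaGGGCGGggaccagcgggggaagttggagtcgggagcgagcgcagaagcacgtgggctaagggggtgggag
Plxnb3: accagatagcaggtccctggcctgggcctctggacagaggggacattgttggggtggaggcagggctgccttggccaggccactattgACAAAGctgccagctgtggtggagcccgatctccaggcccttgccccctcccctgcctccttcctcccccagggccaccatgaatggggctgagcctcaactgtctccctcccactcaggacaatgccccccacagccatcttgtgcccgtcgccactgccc

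Sema4a and Sema6d each held 1 GC box and no Sox core in these windows, and Plxnb3 held 1 Sox core and no GC box. A GC box was present in at least 1 such window of 21 of the 26 members in the RefSeq table, against 32.7% of all 32851 windows. A Sox core was present for 5 of the 26 (Plxnb3, Sema3a, Sema3d, Sema4f and Sema6d, the last at its other start), against 16.5% of all windows. Members can have more than 1 window, so their shares are not on the same footing as the share of all windows. These are matches of letters and not measured binding.

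The members spanned a wide range of levels. Between genes, levels were compared as CPM (counts relative to the TMM-scaled library size) per kilobase of exons, and the values are means of 22 mice with the lowest and highest mouse. Sema6b, a class 6 ligand of the A plexins, was the highest at 27.1 (14.5 to 39.6). It was followed by Plxna1, a receptor of class 3 and class 6 semaphorins, at 17.2 (8.45 to 27.4) and by Sema4a, a class 4 ligand known from immune cells and as a signal that harms oligodendrocytes, at 13.4 (9.97 to 18.0). Plxna4, the partner of neuropilin-1 in Sema3a signalling, stood at 10.8 (4.31 to 18.7) and Sema4f at 10.4 (5.54 to 15.9). Compared mouse by mouse, Sema6b was above Plxna1 in all 22 mice. Plxna1 was above Sema4a in 13 of 22, Sema4a above Plxna4 in 16 and Plxna4 above Sema4f in 11, so that these last neighbours had no common order over the mice. Part of this order went with the run. Mean Plxna1 was below Sema4a in run 1 (10.4 and 11.7) and above it in run 2 (22.9 and 14.9). Plxna4 was below Sema4f in run 1 (5.87 and 7.88) and above it in run 2 (14.9 and 12.5).

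In CPM, Sema6b had 57.4, 94.4 and 152.4 (lowest, median and highest) in controls and 60.3, 133.6 and 157.1 in stimulated mice. Plxna4 had 60.7, 144.9 and 238.4 in controls and 71.7, 194.9 and 263.4 in stimulated mice, and Sema4f had 29.3, 53.1 and 73.4 and 36.9, 61.3 and 83.9. The groups overlapped for all 3 genes. These medians mix runs of unlike level, with 6 of 12 controls and 6 of 10 stimulated mice in run 2. Control and stimulated medians for Sema6b were 67.9 and 71.0 in run 1 and 136.2 and 140 in run 2. For Plxna4 they were 80.7 and 84.4, then 187.6 and 213.9, and for Sema4f 41.3 and 41.7, then 56.2 and 75.95.

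Within run 1 the lowest Sema6b value (14.5) was above the highest Plxna1 value (12.0), and the first 5 places were held by these genes in both runs. With the longest transcript as the length, 4 of them stayed among the first 5 and Plxna4 went to place 7. The secreted class 3 semaphorins were mostly low. Sema3c stood highest among them at 5.65, then Sema3e, which signals through Plxnd1 without a neuropilin, at 2.57, and Sema3a, the prototype repellent of axons, at 1.19. Sema3f, the ligand of neuropilin-2, was at 0.958, Sema3d at 0.881, Sema3b at 0.716 and Sema3g at 0.614. The lowest member by this mean was Sema4g at 0.429 (0.250 to 0.593). In run 1 Sema3g was lower than Sema4g (0.254 and 0.410), as it was with the longest transcript as the length (0.614 and 0.817). Of the co-receptors, Nrp1 (4.92) was higher than Nrp2 (1.76) and the ranges of 3.46 to 6.88 and 1.01 to 3.21 did not overlap.

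**Figure D1:**
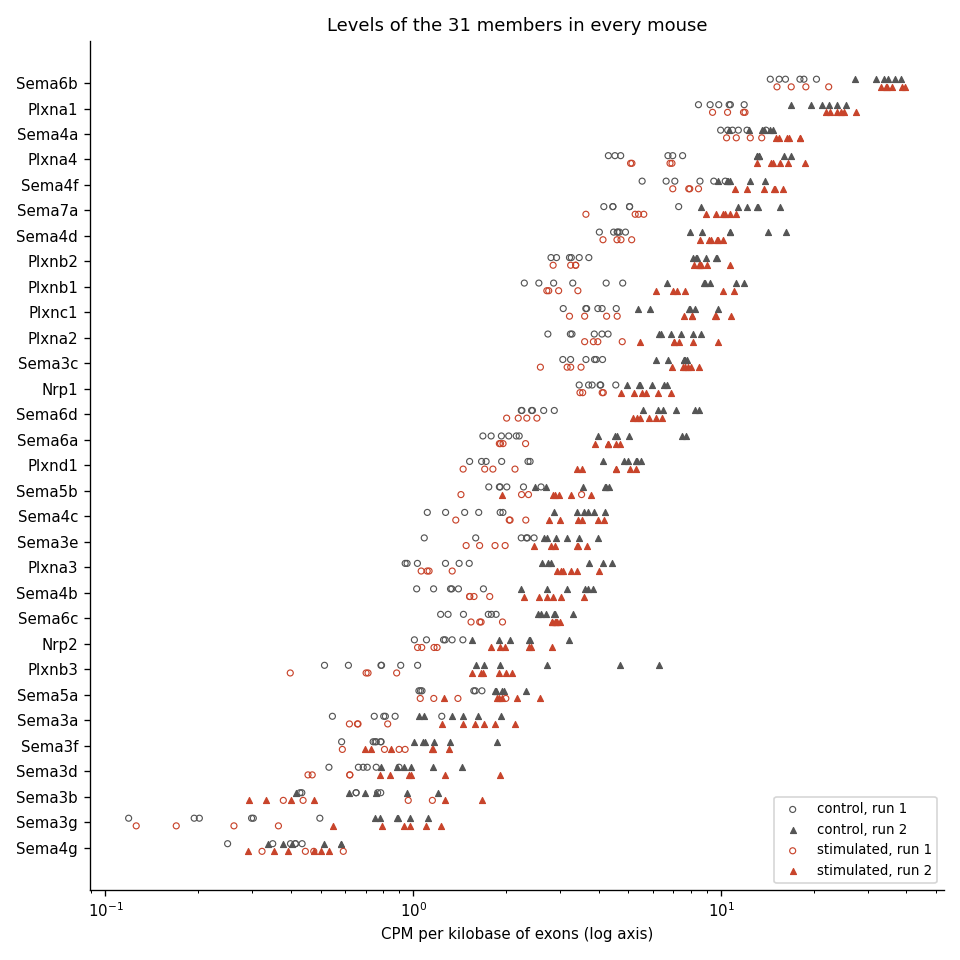
CPM per kilobase of exons (log axis) of the 31 members, ordered from highest to lowest mean, with 1 point per mouse (grey for controls, red for stimulated mice, open circles for run 1 and filled triangles for run 2). The triangles sit to the right of the circles for most members, while grey and red points of the same run mostly overlap.

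The comparison of stimulated mice with controls asked which of these genes differed in the ACC after repeated activity of its amygdala input. With the run in the fit, edgeR's quasi-likelihood test gave no member an adjusted p under 0.05 (smallest adjusted p among members 0.329), nor any other of the 17524 genes tested (0%), while DESeq2's Wald test gave 33 genes such a value, none of them a member. At an unadjusted p under 0.05 there were 3 of 31 members, 1 higher and 2 lower in stimulated mice, a share of 9.68% beside 11.5% of all genes tested. The members had 15 positive and 16 negative differences, with a median log2 difference of -0.03 beside 0.01 over all genes. The share of members was thus no larger than the background.

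Sema4a was the member that was higher. Its CPM was 53.9, 66.2 and 79.9 (lowest, median and highest of 12) in controls and 56.3, 82.4 and 97.4 in the 10 stimulated mice. In run 1 the stimulated mice had 67.3, 60.6, 56.3 and 73.3 CPM against 53.9 to 75.7 in controls, and the groups overlapped. In run 2 the stimulated mice had 81.3 to 97.4 CPM and the controls 57.2 to 79.9, and Sema4a was the only member whose groups did not overlap in that run, as was the case, with the stimulated mice higher, for 0.354% of all genes. Controls 11 and 9 had its lowest values there, at 57.2 and 66.8 CPM. The log2 fold change was 0.20 (SE 0.07, 1.15-fold) with an unadjusted p of 0.0096 and an adjusted p of 0.349 in edgeR, and 9 of 10 stimulated mice were above the control median of their own run. With group as the only term it was 0.25 (SE 0.10, unadjusted p = 0.025), the single member past that threshold there, beside 3.61% of all genes.

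Sema6d, a class 6 ligand of Plxna1, was lower. Controls had 23.7, 44.7 and 89.3 CPM and stimulated mice 21.2, 55.5 and 68.0, and these ranges were set by the run. In run 1 the controls had 23.7 to 30.3 CPM and the stimulated mice 24.7, 21.2, 23.2 and 26.6. In run 2 the controls had 59.0 to 89.3 and the stimulated mice 54.8 to 68.0, with the 2 highest values in controls 9 and 11. Overlap was present in both runs. The log2 fold change was -0.22 (SE 0.07, 0.858-fold), with an unadjusted p of 0.0050 and an adjusted p of 0.329 (edgeR), and 9 of 10 stimulated mice were below the control median of their run. Without the run in the fit it was -0.13 (SE 0.29, unadjusted p = 0.66).

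Plxnb3, the receptor of Sema5a and in the brain known mainly from oligodendrocytes, had the largest difference. Controls had 3.34, 8.53 and 40.9 CPM and stimulated mice 2.59, 10.5 and 13.6, over both runs. The control and stimulated medians were 5.11 and 4.60 in run 1 and 15.0 and 11.6 in run 2. In run 2 controls 9 and 11 had 40.9 and 30.4 CPM, against 10.3 to 17.7 in the other 4 controls and 10.1 to 13.6 in the stimulated mice. The log2 fold change was -0.54 (SE 0.21, 0.688-fold), with an unadjusted p of 0.016 and an adjusted p of 0.359 (edgeR), and 9 of 10 stimulated mice were below the control median of their run. Without controls 9 and 11 it was -0.15 (SE 0.14, unadjusted p = 0.29), and without control 9 alone -0.35 (unadjusted p = 0.055).

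**Figure D2:**
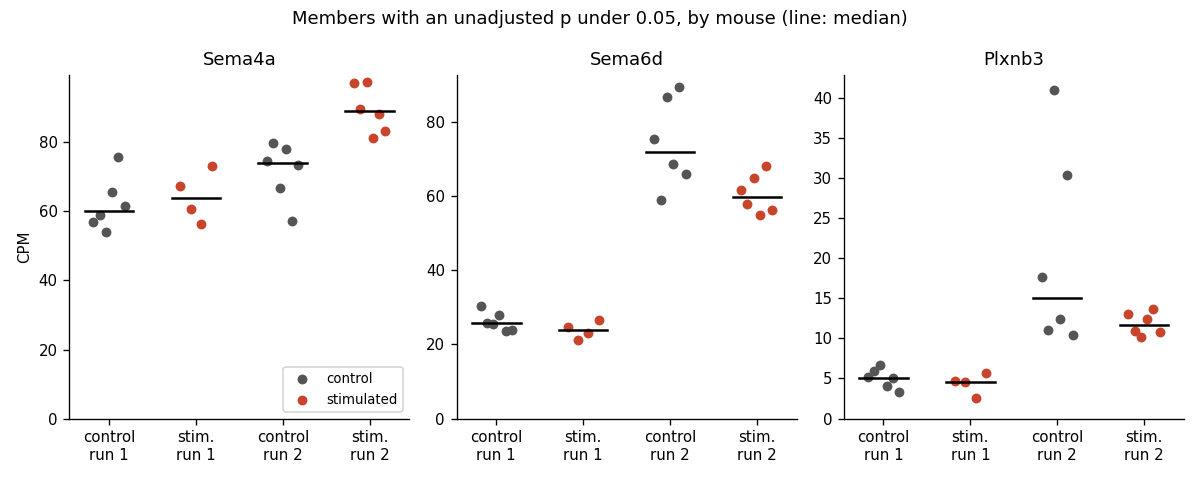
CPM (from 0) of Sema4a, Sema6d and Plxnb3 in each mouse, by run and group, with the median as a line. In run 2 all 6 stimulated mice lie above all 6 controls for Sema4a, and the 2 high Plxnb3 points are controls 9 and 11 at 40.9 and 30.4 CPM.

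Without controls 9 and 11, 2 members stayed at an unadjusted p under 0.05, beside 8.16% of all genes: Sema4a at 0.15 (SE 0.07, unadjusted p = 0.043) and Sema6d at -0.13 (SE 0.06, unadjusted p = 0.047) on the log2 scale. The oligodendrocyte genes moved with the group. All 26 markers of the list had a negative difference, 20 of them with an unadjusted p under 0.05 and none with an adjusted p under 0.05 (smallest 0.313, edgeR), and their summed CPM ran from 3655 to 21370 in controls and from 2762 to 6326 in stimulated mice. With the oligodendrocyte score added to the fit, 0 members had an unadjusted p under 0.05, beside 8.27% of all genes, with Sema4a at 0.13 (unadjusted p = 0.071), Sema6d at -0.13 (unadjusted p = 0.054) and Plxnb3 at -0.09 (unadjusted p = 0.50). Without controls 9 and 11 the list had 21 negative and 5 positive differences, 2 of them with an unadjusted p under 0.05, and its median log2 difference went from -0.62 to -0.09. By run, 24 of the 26 had an unadjusted p under 0.05 and were lower in run 2 (median -1.26), and without controls 9 and 11 this was 8 of 26 there (median -0.23). In run 1, differences were positive for 15 and negative for 11, with a median of 0.02. In bulk tissue, the number of cells of a type in a sample and their RNA per cell cannot be told apart. This holds for controls 9 and 11 as for the stimulated mice, and what set these controls apart was not tested.

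Markers of other cells were set against the same 11.5% of all genes. Of 4 choroid plexus markers, Ttr (-1.88, unadjusted p = 0.0016) and Clic6 (-1.17, unadjusted p = 0.0053) were lower in stimulated mice, and Kcnj13 was at 0.42. In run 1 alone 0 of the 4 had an unadjusted p under 0.05 (median -0.09), and there Ttr was at 127.4 CPM in control 3, against 2.07 to 15.0 in the other 5 controls and 7.87 to 13.8 in stimulated mice. Higher were 1 of 6 excitatory neuron markers, Slc17a7 (0.16), and 2 of 6 inhibitory neuron markers, Slc32a1 (0.31) and Sst (0.24), at an unadjusted p under 0.05. Of 10 mural and fibroblast markers Rgs5 (-0.25, unadjusted p = 0.015) was lower, and of 10 oligodendrocyte progenitor markers Olig2 (-0.29, unadjusted p = 0.039). No marker of microglia, endothelium, striatum or red cells had an unadjusted p under 0.05, and all 7 striatum markers and all 5 red cell markers had a positive difference. With controls 9 and 11 left out, 0 excitatory neuron and 0 oligodendrocyte progenitor markers had an unadjusted p under 0.05. In that fit 1 of 7 striatum markers was higher and 1 of 9 microglia markers lower at this threshold. The counts stayed at 2 for inhibitory neurons, 1 for mural cells and fibroblasts and 2 for choroid plexus. All 10 astrocyte markers had a negative difference and 0 had an unadjusted p under 0.05. None of these markers had an adjusted p under 0.05 in edgeR, and their part in the members' differences was not tested.

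The other 28 members, by role, had the following log2 differences, none with an unadjusted p under 0.05. Among the secreted ligands, Sema3a (0.02), Sema3b (0.06), Sema3c (-0.04), Sema3d (-0.10), Sema3e (-0.10), Sema3f (-0.13) and Sema3g (-0.06) lay within 0.14 of 0. For Sema3b the 95% confidence interval ran from -0.51 to 0.63, the widest of these ligands. Class 4 ligands other than Sema4a were Sema4b (0.02), Sema4c (0.11), Sema4d (-0.14), Sema4f (0.15) and Sema4g (0.06). Sema4d, the ligand of Plxnb1 that oligodendrocytes also make, was below the control median of its run in 8 of 10 stimulated mice, and Sema4f above it in 9 of 10. Those control medians include controls 9 and 11 in run 2. In the fit without these 2 mice Sema4d was at 0.02, Sema4f at 0.10, Sema4c at 0.16 and Sema4g at 0.15.

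The class 5 ligands Sema5a (0.03) and Sema5b (-0.06) carry thrombospondin repeats and were close to 0. Of class 6, Sema6a, a ligand of Plxna2 and Plxna4, was at -0.18 with 9 of 10 stimulated mice below, Sema6b at 0.09 and Sema6c at 0.08. Sema7a, the membrane-anchored ligand of Plxnc1 and integrins, was at -0.17, while Plxnc1 itself was at 0.15. The A plexins, receptors of class 3 and 6 semaphorins, were at 0.14 for Plxna1 (unadjusted p = 0.056, 9 of 10 above), 0.10 for Plxna2, 0.09 for Plxna4 and -0.05 for Plxna3. Plxnb1, the receptor of Sema4d, was at -0.19 and Plxnb2, which has a broad set of class 4 ligands, at 0.00 with a 95% confidence interval of -0.12 to 0.13. Plxnd1, the receptor of Sema3e, was at -0.16, and the neuropilins Nrp1 and Nrp2 were at -0.03 and -0.08. In the fit without controls 9 and 11, Sema6a was at -0.004 (unadjusted p = 0.95, edgeR), Sema7a at -0.09 and Plxnc1 at 0.06. Plxna1 was then at 0.09 (unadjusted p = 0.20, edgeR). Plxna3 (-0.12), Plxnd1 (-0.17) and Nrp2 (-0.15) lay further from 0 there than with all mice.

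**Figure D3:**
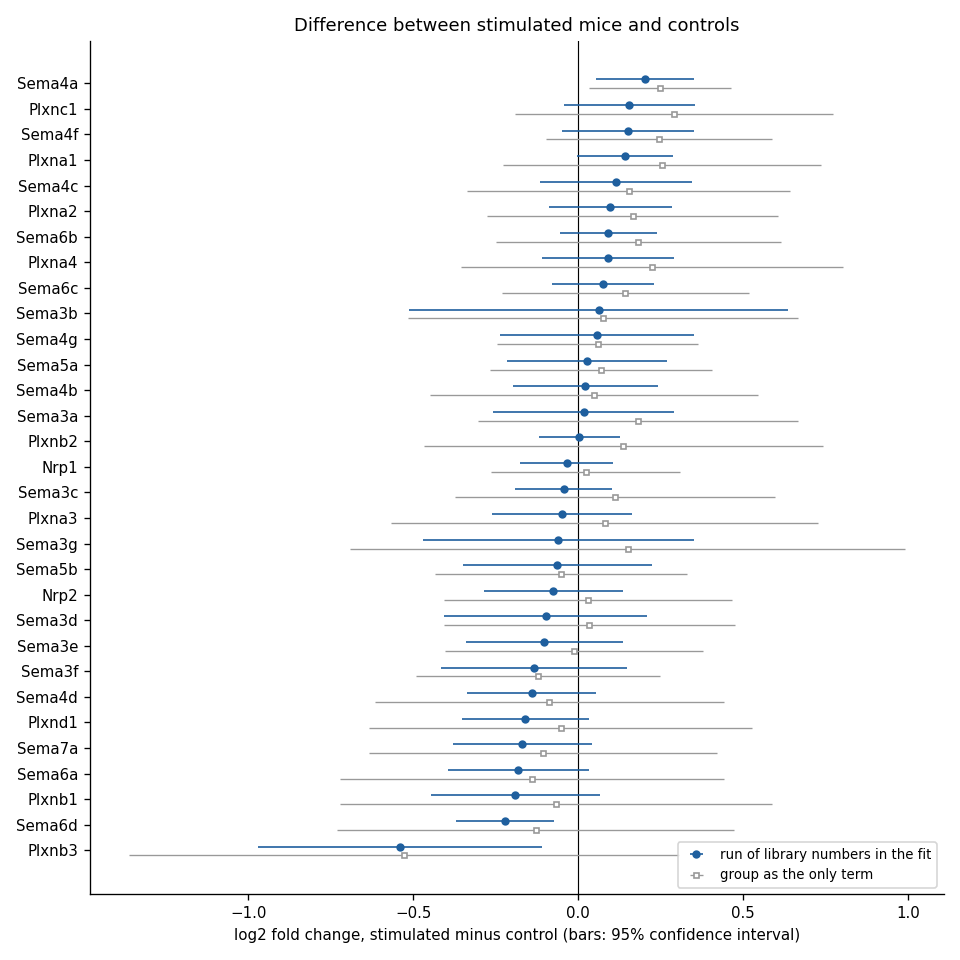
Log2 fold change of the 31 members, stimulated minus control, with 95% confidence intervals, for the fit with the run (blue circles) and with group as the only term (grey squares). The blue intervals of Sema4a, Sema6d and Plxnb3 leave out 0, and the grey interval leaves it out for Sema4a at 0.25.

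The same contrast was taken within each run. In run 1, 1 member had an unadjusted p under 0.05, beside 5.56% of all genes: Sema3d at -0.37 (SE 0.17, unadjusted p = 0.048). In run 2 there were 7 of 31 (22.6%), beside 12.4% of all genes. Higher in stimulated mice of run 2 were Sema4a at 0.29 (SE 0.09, unadjusted p = 0.0045) and Sema4f at 0.25 (unadjusted p = 0.023). Lower were Sema6d at -0.33, Plxnb3 at -0.83, Sema7a at -0.31, Sema6a at -0.39 and Sema4d at -0.31, with unadjusted p from 0.0065 to 0.047. The smallest adjusted p of a member in edgeR was 0.869 in run 1 and 0.278 in run 2. Run 2 holds both controls with the high oligodendrocyte score, and these had the 2 highest values of Plxnb3, Sema6a, Sema4d and Sema6d in that run. Without them, 1 of 31 members had an unadjusted p under 0.05 in run 2, beside 4.99% of all genes. That was Sema4a at 0.20 (SE 0.08, unadjusted p = 0.024, adjusted p = 0.940 in edgeR). Sema6d was then at -0.18 (SE 0.10), Plxnb3 at -0.15 (SE 0.15), Sema7a at -0.18 (SE 0.11), Sema6a at -0.09 (SE 0.09), Sema4d at -0.04 (SE 0.10) and Sema4f at 0.19 (SE 0.11).

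Whether the difference depended on the run was tested by an interaction. No member had an adjusted p under 0.05 (smallest 0.585, edgeR), and 2 of 31 had an unadjusted p under 0.05, beside 8.01% of all genes. In this joint fit Sema3c had a log2 difference of -0.22 in run 1 and 0.09 in run 2. Sema4b had 0.27 in run 1 and -0.18 in run 2. Without controls 9 and 11, 1 of 31 had an unadjusted p under 0.05, beside 3.97% of all genes, with Sema4b at -0.46 (unadjusted p = 0.036) and Sema3c at 0.26 (unadjusted p = 0.059). For Sema4a the difference between the runs was 0.27 (SE 0.14, unadjusted p = 0.062), so the 0.05 of run 1 and the 0.32 of run 2 in the same fit were not shown to differ. The values within a run given before come from a fit of that run alone.

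Between the runs the members differed more than between the groups. With the group in the fit, all 31 were higher in run 2, 29 of them (93.5%) with an adjusted p under 0.05 in edgeR, beside 33.7% of all genes called higher and 68.1% called in either direction. The median log2 difference was 1.04 for the members and -0.03 for all genes. For 21 members the lowest mouse of run 2 was above the highest mouse of run 1, as for 13.9% of all genes. Sema3g had the largest difference at 1.86 (SE 0.21, 3.62-fold), followed by Plxnb3 at 1.76 (SE 0.22), Plxna3 at 1.51, Plxnb1 at 1.48, Plxnb2 at 1.46 and Sema6d at 1.43 (SE 0.07). Sema4a had a smaller one at 0.33 (SE 0.07, adjusted p = 0.000289, edgeR), and Sema4g (0.12) and Sema3b (0.18) did not pass the test.

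Other measures moved with the run. Mitochondrial genes took 1.63% to 4.81% of a library in run 1 and 0.982% to 1.90% in run 2, and with that share in the fit 27 of the same 29 members had an adjusted p under 0.05, beside 31.4% of all genes called higher. The summed CPM of 6 excitatory neuron markers in controls was 3163 to 3899 in run 1 and 4810 to 6872 in run 2. These markers did not move together: Slc17a7 (0.96 on the log2 scale) and Camk2a (adjusted p = 1.6e-08, edgeR) were higher in run 2 and Nrgn (-0.54) was lower. Among inhibitory neuron markers Slc32a1 (0.60) was higher and Sst (-1.04) lower. Over all genes the run difference went with gene length: from the shortest to the longest quartile of exon lengths its median was -0.62, -0.14, 0.22 and 0.47. The longest quartile held 21 of the 31 members, and 65.4% of its genes were called higher in run 2. The median exon length was 7720 bases for the members and 3995 for all genes tested. Quartiles of GC content had medians from -0.05 to -0.01. Genes of the longest quartile with a GC content over the median, 12 of the members among them, had a median of 0.65, and 76.1% of them were called higher. The part of length, GC content, mitochondrial share or neuronal markers in the members' run difference was not tested, and the runs cannot be told apart from whatever else changed between them.

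**Figure D4:**
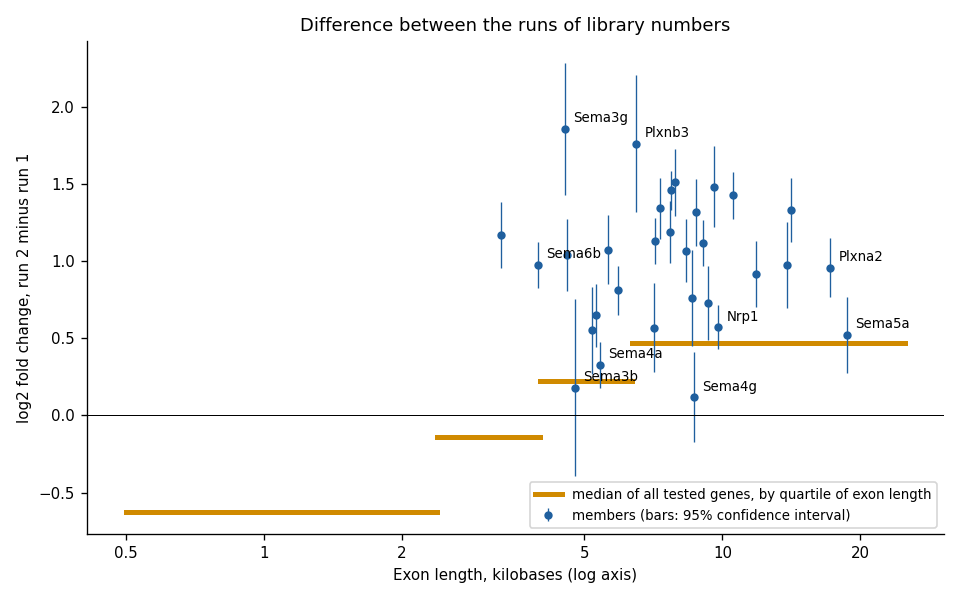
Log2 fold change of each member between the runs (run 2 minus run 1, 95% confidence intervals) against its exon length in kilobases (log axis), with the median of all tested genes in each quartile of length as an orange line, drawn only within the axis. All 31 points lie above 0, and 21 of them fall in the longest quartile, whose median is 0.47.

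The members were also set against the oligodendrocyte score, with run and group in the fit. The slope is the log2 change of a gene per 1 log2 unit of the score. Of the 31 members 6 (19.4%) had an adjusted p under 0.05 in edgeR, 3 in each direction, beside 4.83% of all genes. Plxnb3 had a slope of 0.75 (SE 0.10, adjusted p = 1.3e-05), Sema6a 0.38 (SE 0.05) and Sema4d 0.34 (SE 0.05). Sema6a had 14.8, 27.1 and 67.5 CPM (lowest, median and highest) in controls and 16.7, 35.8 and 41.1 in stimulated mice. Sema4d had 30.9, 49.1 and 125.0 CPM in controls and 31.8, 67.8 and 78.0 in stimulated mice. Both were highest in control 9, and the groups overlapped. These medians mix the runs. In run 2 the control and stimulated medians were 42.1 and 37.7 for Sema6a and 82.2 and 72.7 for Sema4d. In run 1 they were 17.5 and 17.0 for Sema6a and 35.4 and 35.8 for Sema4d. These 3 genes are known from oligodendrocytes as receptor (Plxnb3) and ligands (Sema6a and Sema4d).

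The negative slopes were those of Plxnc1 (-0.33, SE 0.06), Plxna1 (-0.20, SE 0.05, adjusted p = 0.031) and Nrp2 (-0.28, SE 0.08, adjusted p = 0.049), which are receptors known from neurons. Over all mice, Plxnc1 had 25.6, 41.6 and 81.6 CPM (lowest, median and highest) in controls and 26.9, 65.4 and 89.8 in stimulated mice. Plxna1 had 76.5, 130.0 and 229.8 in controls and 85.0, 201.4 and 247.9 in stimulated mice, and Nrp2 had 11.9, 17.8 and 38.0 and 12.2, 21.9 and 33.5. The groups overlapped for all 3, with the lowest values in run 1. These medians also mix the runs. Control and stimulated medians in run 1 were 31.9 and 32.8 for Plxnc1, 92.6 and 101.1 for Plxna1, and 14.9 and 13.2 for Nrp2. In run 2 they were 65.8 and 73.7, 197.5 and 218.8, and 26.3 and 25.9, in the same order. In run 2, Plxnc1 was at 45.0 CPM in control 9 and at 89.8 in stimulated mouse 7, and Plxna1 at 152.4 and 247.9 in the same mice, both the lowest and highest of the run. Nrp2 had 18.3 CPM in control 9 and 38.0 in control 10. Sema6d (0.18, adjusted p = 0.063) and Sema4a (-0.18, adjusted p = 0.083) did not pass.

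The adjusted calls were lost without 2 mice. Without controls 9 and 11, 0 of 31 members had an adjusted p under 0.05, beside 0.103% of all genes, and 4 members had an unadjusted p under 0.05 (edgeR), beside 6.85% of all genes. All 6 slopes kept their sign: Plxnb3 was at 0.60 (SE 0.33), Sema6a at 0.28 (SE 0.16), Sema4d at 0.12, Plxnc1 at -0.47 (SE 0.18, unadjusted p = 0.018), Plxna1 at -0.30 and Nrp2 at -0.46. The last 3 slopes were larger in size than with all mice. Without control 9 alone or control 11 alone, 4 of 31 passed the adjusted test, Plxnb3, Sema6a, Sema4d and Plxnc1 in both cases, beside 1.32% of all genes without control 9 and 3.33% without control 11.

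**Figure D5:**
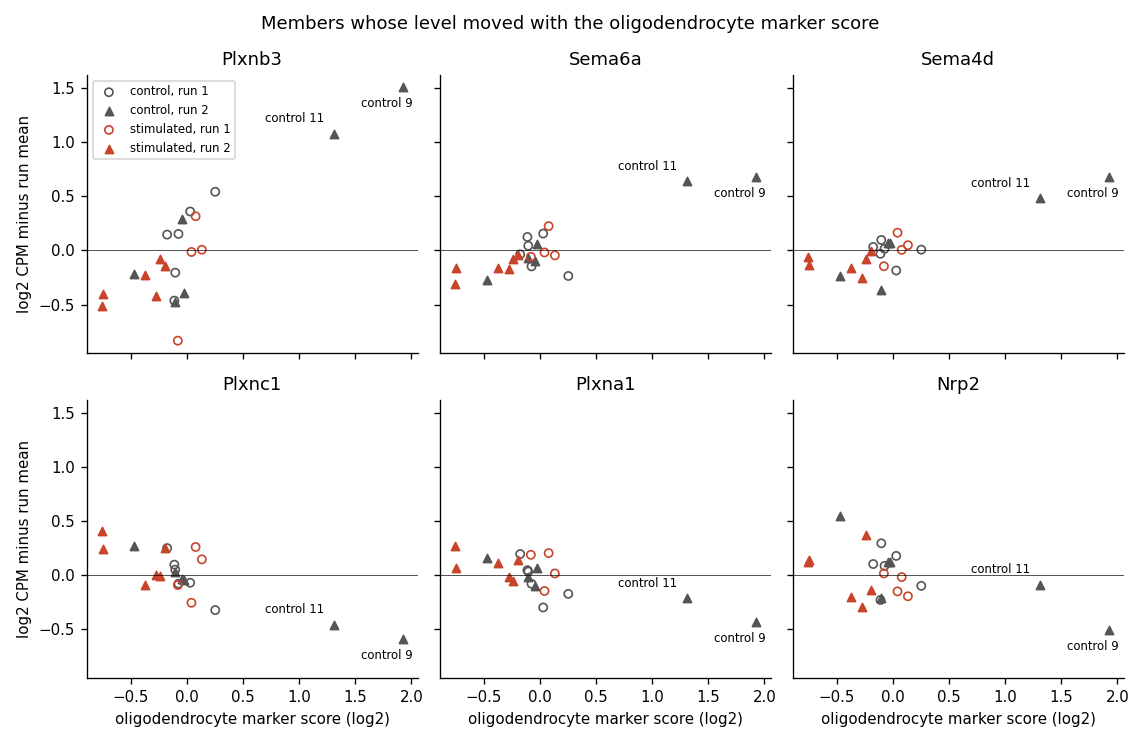
Log2 CPM minus the mean of the run against the oligodendrocyte marker score for the 6 members with an adjusted p under 0.05 for the slope, 1 point per mouse. Controls 9 and 11, with scores of 1.92 and 1.31, lie far to the right of all other mice, high for the upper 3 genes and below the run mean for the lower 3.

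Genes that act with these ligands and receptors were taken from a list of 43, of which 42 had a row in the table. Of 12 co-receptors tested none had an unadjusted p under 0.05 between the groups, with 6 positive and 6 negative differences. Of 30 downstream genes 4 did, beside 11.5% of all genes, and none had an adjusted p under 0.05 (smallest 0.349, edgeR). Higher in stimulated mice were Cfl1, the actin-severing cofilin, at 0.19 (SE 0.07), Rnd1, a small GTPase that binds plexins, at 0.26 (SE 0.10), and Gipc1, an adaptor of receptor tails, at 0.12 (SE 0.05). Lower was Arhgef12, a RhoA activator bound by the B plexins, at -0.15 (SE 0.07). Without the run in the fit none of the 42 had an unadjusted p under 0.05.

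On GRCm38 (GENCODE M21), Sema4a lay on chr3:88435959-88461182, Sema6d on chr2:124089969-124667770 and Plxnb3 on chrX:73757090-73772514. Counts were over exons of whole genes, and isoforms of a gene are not separated. Exons of 7 members overlapped those of another gene: by 73 bases for Sema4a (a microRNA on the same strand), 970 for Plxna1, 334 for Sema4c, 257 for Plxnb1, 110 for Plxna4, 115 for Plxnc1 and 80 for Nrp1. The strand setting of the counting is not given in the sources used here, so reads in these stretches may have been left out or assigned to either gene.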

How the data were processed

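Bulk ACC RNA of 22 mice was sequenced. Per the labels and methods, the authors used cutadapt 1.10 to trim single-end reads and STAR 2.5.3a to align them to mm10, and counted unique alignments per Ensembl gene with HTSeq 0.6.1p1. They deposited whole-number counts, used here, and counts divided by size factors (a signal, read only for their size factors), besides log2 fold changes and p-values of their own DESeq2 1.22.1 comparison with batch and RNA integrity as covariates, not used here. The table had 0 other columns of per-sample values.

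Groups and library numbers came from the labels. Counts were tested with edgeR 4.0.16 in R 4.3.3 (TMM, quasi-likelihood), with run and group as terms, over 17524 genes (a minimum of 10 counts reached in 10 mice or more) and Benjamini-Hochberg adjustment over all of them. The test was checked on simulated data, where it recovered 53.1% of genes given a log2 change of 0.5 and 90.6% of those given 1. Smaller changes, such as those of most members, were not simulated. Over 231 pairs of libraries no counts agreed within sampling noise (smallest mean chi-square per gene 10.1). CPM used TMM library sizes, and exon lengths came from GENCODE M21, where all 31 identifiers matched.

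All members are named, with the lowest, median and highest mouse for those with an unadjusted p under 0.05, an adjusted p under 0.05 for the score, or the 5 highest levels. The members and gene lists were chosen with earlier results of these data known. Alternatives were other scalings, tests (DESeq2 1.42.0, limma 3.58.1 voom), count minimums, covariates, subsets of mice and a replicate block. The slopes without control 9 or control 11 the run difference without both, and run 2 alone without both were added after seeing the data. Each mouse is 1 animal, and no statement says that any were pooled. Promoters came from RefSeq, with 26 of 31 members matched.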

Additional observations from a re-analysis of the deposited data

Results flagged for a closer look

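2 members had differences between the groups that differed between the runs at an unadjusted p under 0.05, by the interaction of group and run in edgeR. For Sema3c the log2 difference was higher in run 2 than in run 1 by 0.31 (SE 0.13, unadjusted p = 0.024, adjusted p = 0.585). Its CPM in run 1 was 21.9 to 29.4 in controls and 18.5 to 25.1 in stimulated mice, all 4 of which were below the control median, and in run 2 it was 44.0 to 55.2 and 49.4 to 60.4, with 4 of 6 above. For Sema4b the value was -0.45 (SE 0.20, unadjusted p = 0.035, adjusted p = 0.605). Its CPM in run 1 was 5.79 to 9.55 in controls and 8.61 to 10.0 in stimulated mice, all 4 above the control median, and in run 2 it was 12.7 to 21.7 and 12.9 to 20.3, with 1 of 6 above. Without controls 9 and 11, Sema3c was at 0.26 (unadjusted p = 0.059) and Sema4b at -0.46 (unadjusted p = 0.036). Neither passed the adjustment over all genes, and 8.01% of all genes had an unadjusted p under 0.05 in this test. The values within a run are each mouse's own and the interaction is from the joint fit.

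Dixon's test was also run on each member in each group of each run, 124 groups in all, and found a mouse that stood apart in 6. Chance flags about 1 in 20 groups. Sema3f had 3.04 CPM in control 3, against 3.85 to 4.09 in the other controls of run 1, and 9.72 in control 9, against 5.22 to 6.83 in the other controls of run 2. Sema5a had 43.5 CPM in control 8, against 34.4 to 36.8. Sema7a had 24.0 CPM in control 3, against 13.7 to 16.6. Sema6a had 20.3 CPM in stimulated mouse 4, against 16.7 to 17.2, and Plxnb2 had 82.4 in stimulated mouse 9, against 63.2 to 69.4 (CPM, same group and run).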

How the results depend on the processing

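No member passed an adjusted p under 0.05 between the groups in any of 36 alternatives, while DESeq2 gave 33 of all genes an adjusted p under 0.05 and 3 members an unadjusted one, beside 12.5% of all genes. At an unadjusted p under 0.05 the 3 members became 1 with group as the only term, 1 in run 1 alone, 7 in run 2 alone, 1 in run 2 without controls 9 and 11 and 0 with the oligodendrocyte score added, and 2 to 5 when each mouse was left out in turn, beside 8.91% to 14.2% of all genes. The 5 were without control 6 (beside 14.2%) or control 10 (beside 11.3%). Sema4a and Sema6d stayed past that threshold without any 1 mouse, and Plxnb3 lost it only without control 9. In voom Plxnb3 was at -0.32 (unadjusted p = 0.11). Only 4 members had 1 sign under all 36 alternatives. The sign changed for 14 members with the replicate block in place of the run and for 12 in run 2 without controls 9 and 11. It changed for 9 in run 2 alone, 6 in run 1 alone and 6 with group as the only term. Each other alternative changed the sign of 0 to 4 members. The interaction had 1 member (Sema4b) without controls 9 and 11, beside 3.97% of all genes, in place of 2. The slopes passing the adjusted test were 0 without these controls, in place of 6, and 4 without either 1 of them. For the pathway genes, 0 in place of 4 passed without the run. The causes were not tested. The 29 members called between the runs were 27 to 29 in 4 alternatives.

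Same-numbered mice are different animals, and their deviations from group and run means correlated at 0.05 on average (-0.13 to 0.27), so the numbers do not pair them. A replicate block over replicates 1 to 10 gave 5 members with the run kept, beside 11.4% of all genes, and 8 in place of the run, beside 7.44%, where Sema6d was at 0.0674. Replicates 5 and 6 join a control of run 1 with a stimulated mouse of run 2. With the block in place of the run, the run difference thus enters the group difference. The 8 calls and the sign of Sema6d there cannot be read as differences between the groups. The lowest count of a member in a mouse was 19, and the part of depth in the width of the intervals was not tested.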
